A study of Mus musculus with 47 samples.

Results

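The 3 genes described here encode surface receptors best known from natural killer (NK) cells. They are Klrd1 (ENSMUSG00000030165), Klrb1c (ENSMUSG00000030325) and Cd160 (ENSMUSG00000038304), chosen by name from the 17754 genes of a table of 47 RNA-seq libraries of mouse T-cell precursors. Each symbol named 1 row of the table. The study asked what the transcription factor Bcl11b does as precursors commit to the T lineage, and, with an inhibitor, whether its loss resembles a block of Notch signalling.

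The largest comparison held 14 Bcl11b knockout and 11 control libraries grown from fetal liver precursors, and the cells of all 25 libraries had been given a Cre retrovirus. The 25 libraries need not be separate cultures, since some title dates advance with the culture day. Knockout cells came from embryos with a floxed Bcl11b gene and control cells from C57BL/6 (B6) embryos, some lines of either kind carrying a ROSA26R-YFP reporter of Cre activity. Cells without the reporter were sorted by surface phenotype alone. They differentiated on OP9-DL1 or OP9-DL4 stroma, stromal lines that present the Notch ligands Delta-like 1 and 4, with Flt3 ligand and IL-7. The protocol notes that reduced IL-7 was given up in later cultures for its effects on cell recovery and RNA quality. Knockout libraries numbered 7 on DL1 with standard IL-7, 1 on DL1 with reduced IL-7, 3 on DL4 with standard IL-7 and 3 on DL4 with reduced IL-7. Control libraries numbered 6, 2, 2 and 1 in the same order. The protocol states that knockout cells were sorted in the DN2a gate and controls in the DN2b gate, DN2a and DN2b being successive double-negative stages. By that protocol the sort gate, and the mouse line, changed together with the genotype and cannot be told apart from it. Of the controls, 3 carry DN2 in place of DN2b as stage label, and the knockout libraries of the same dates are titled DN2 too. The title of 1 knockout library says DN2b, as does that of its control of the same date, although its stage label is DN2.

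Further conditions were smaller. From B6 fetal liver, with no Cre given, came 2 DN2a and 2 DN2b libraries exposed on DL1 to 1 μM of an inhibitor of gamma-secretase (GSI) for the last 12 h, and 4 DN2a and 2 DN2b libraries without it. Gamma-secretase releases the active part of Notch. One DN2b library and its GSI partner are titled DN3, and several DN2a libraries pooled cells of 2 dates. Bone marrow precursors of CreERT2 mice with floxed or wild-type Bcl11b, treated with tamoxifen and grown on DL4, gave 1 library each. Thymocytes with Lck-Cre deletion in vivo gave 1 knockout library, labelled DN2, and 1 control, labelled DN3. Thymic DN3 cells of CreERT2 mice were treated with 4-hydroxytamoxifen and cultured on DL4, 1 knockout for 4 days and 2 controls for 3 and 4 days, and 2 further DN3 libraries (1 floxed, 1 not) were taken without deletion. The last 3 libraries came from fetal liver cells on DL1 given a second retrovirus 36 h before harvest, namely knockout cells with a Bcl11b vector (an isoform made of exons 1, 2 and 4), knockout cells with the empty vector and control cells with the empty vector.

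NK cells read their targets through pairs of activating and inhibitory receptors. Klrd1 encodes CD94, which reaches the surface as a dimer with NKG2 proteins of the Klrc genes and binds the non-classical MHC molecule Qa-1, encoded by H2-T23. Klrb1c encodes NKR-P1C, the NK marker of B6 mice, an activating receptor that signals through the adaptor of Fcer1g. Cd160 encodes a lipid-anchored receptor of NK and intraepithelial T cells that binds the herpesvirus entry mediator, encoded by Tnfrsf14. Loss of Bcl11b in mouse T-lineage cells is known to yield cells with NK features.

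Values are FPKM, fragments scaled to transcript length and to the number of mapped fragments, adjusted by the authors with ComBat, and 0.1 FPKM is the lowest value of every library. A value of 0.1 is read here as listed at the floor. Bcl11b itself had 8.77 to 37.9 FPKM in the 14 fetal liver knockout libraries, against 16.9 to 84.4 FPKM in the 11 controls (difference -1.22 on the log2 scale, SE 0.21, limma adjusted p = 0.000127), and it was lower in the knockout library of 8 of the 9 pairs with a common title date, stroma and IL-7 level. In the DL1 pair with reduced IL-7 it had 23.6 FPKM in the library labelled knockout, against 16.9 FPKM in the library labelled control. In bone marrow cultures it had 45.0 FPKM in the library labelled knockout, against 44.9 FPKM in the library labelled control. The value covers the whole gene and no label names the deleted part, so a retained value does not by itself contradict a label. Labelled genotypes are used throughout. Of 8 T-lineage markers, a list that holds Bcl11b, 7 were lower in knockout than in control libraries, the targeted gene Bcl11b among them, where 7.1% of all genes tested were lower. Their summed level, with Bcl11b, ran from 996 to 2189 FPKM in knockout and from 2148 to 3716 FPKM in control libraries. Of 10 NK cell markers 6 were measured, and 2 defining genes, Ncr1 and Eomes, stayed at or below 0.538 and 0.809 FPKM in all 47 libraries.

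Klrd1 and Klrb1c lie on chromosome 6, in the NK gene complex, and Cd160 lies on chromosome 3. In the GENCODE M21 annotation, Klrk1 and Klre1 are the nearest coding genes to Klrd1, and Klrb1b and Klrb1 those to Klrb1c. Cd160 is flanked by Rnf115 and Gpr89 and overlaps Pdzk1, a scaffold protein gene on the opposite strand. The shared stretch is 68 of 2642 exon bases of Cd160 (2.6%), and the library protocol lists no step that marks strand. Klrb1c shares 413 of its 2961 exon bases (13.9%) with the predicted gene Gm44511, and it has close relatives in the Klrb1 family, between which short reads may have been split. Upstream windows from RefSeq (build GRCm38.p6) are shown for Cd160 and Klrb1c, which were higher in knockout libraries. Klrd1, also higher there, had no entry among the promoters searched, so no window is shown for it. Each is the 250 bases before the start, 5′ to 3′ on the gene's own (minus) strand, with matches to the RUNX hexamer TGTGGT or its reverse complement ACCACA in capitals. The first belongs to the downstream of 2 annotated Cd160 starts, chr3:96814522-96814771, and the second to Klrb1c, chr6:128788642-128788891.
Cd160: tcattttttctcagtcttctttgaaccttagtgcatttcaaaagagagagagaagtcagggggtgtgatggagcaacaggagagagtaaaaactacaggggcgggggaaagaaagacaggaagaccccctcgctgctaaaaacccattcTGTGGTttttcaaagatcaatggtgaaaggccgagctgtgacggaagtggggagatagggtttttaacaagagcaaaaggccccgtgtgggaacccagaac
Klrb1c: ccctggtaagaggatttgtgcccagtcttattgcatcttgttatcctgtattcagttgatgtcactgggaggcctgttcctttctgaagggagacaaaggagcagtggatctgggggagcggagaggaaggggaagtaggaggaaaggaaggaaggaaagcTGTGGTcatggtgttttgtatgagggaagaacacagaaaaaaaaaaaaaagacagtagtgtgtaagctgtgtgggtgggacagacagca
The RUNX match began 101 bases before the Cd160 start and 89 bases before the Klrb1c start, and 14.0% of the 32851 promoters in the table hold one in the same window. Both windows also held 1 match to GGAAGT or its reverse complement ACTTCC, the core of many ETS sites, which 19.7% of promoters hold. The Cd160 window held 1 match to the T-box letters TCACAC or GTGTGA (12.3% of promoters) and none to the E-box CANNTG (66.2%), and the Klrb1c window held 1 E-box match and no T-box match. Both strands were searched, and no 2 matches of different motifs shared a base. The window at the upstream Cd160 start, which runs into exons of Pdzk1, is not shown, and the FPKM table does not tell the 2 starts apart. These matches describe letters only.

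Klrd1 was higher in knockout libraries in all 9 date pairs. On DL1 with standard IL-7 the 7 knockout libraries had a lowest value of 0.10, a median of 6.27 and a highest value of 10.2 FPKM, against 0.10, 1.53 and 3.92 FPKM in 6 controls. The single DL1 knockout library with reduced IL-7 had 27.5 FPKM, against 1.95 and 3.89 FPKM in 2 controls. On DL4 with standard IL-7 the knockout libraries had 10.5, 29.8 and 19.2 FPKM, and both controls stood at the floor of 0.10 FPKM. On DL4 with reduced IL-7 the knockout libraries had 17.3, 8.47 and 27.7 FPKM, against 4.01 FPKM in the control. The groups overlapped through 2 knockout libraries on DL1 with standard IL-7, replicate 5 at the floor and replicate 6 at 3.17 FPKM, which lay below the highest control. Replicate 5 belongs to no date pair, so the count of pairs leaves it out. Over all 25 libraries the knockout mean was 12.9 ± 9.72 FPKM (SD, n = 14) and the control mean 1.76 ± 1.60 FPKM (SD, n = 11).

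A linear model with stroma and IL-7 as covariates gave Klrd1 a difference of 2.09 on the log2(FPKM + 1) scale, knockout minus control (SE 0.38, 95% interval 1.30 to 2.88, limma adjusted p = 0.00025). Over the 12678 genes of this fit, 16.9% had an adjusted p under 0.05 and are called here, 9.8% as higher and 7.1% as lower. Paired differences ran from 0.92 to 4.81 with a median of 1.92, and 3.8% of genes tested were higher in all 9 pairs (3.35% lower). Both largest paired differences were those of the DL4 pairs with standard IL-7, whose controls were at the floor. Among DL4 libraries the difference was 3.22, past the threshold. Within DL1 with standard IL-7, which are also all libraries of the latest title year, the difference was 1.33 (SE 0.47, limma adjusted p = 0.127), below the threshold. In the earliest and middle title years it was 2.15 and 4.13, both past the threshold. In the DL1 pair with reduced IL-7, Bcl11b was not lower in the library labelled knockout. Without this pair the differences were 1.98 for Klrd1, 0.54 for Klrb1c and 1.16 for Cd160, each called, among 2030 genes called. In bulk RNA, fewer cells of a type and less RNA per cell cannot be told apart.

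**Figure D1:**
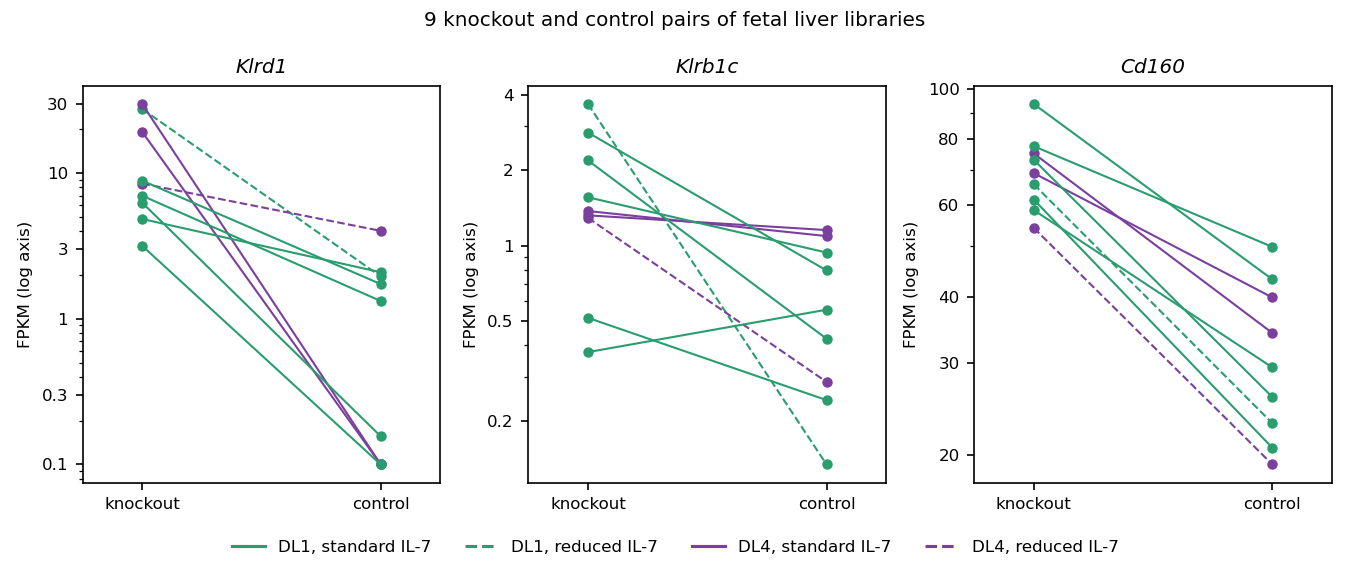
FPKM (log axis) of Klrd1, Klrb1c and Cd160 in the 9 pairs of knockout and control libraries that share title date, stroma and IL-7; each line joins a pair, colour gives the stroma and dashes mark reduced IL-7. All lines of Klrd1 and Cd160 and 8 of 9 lines of Klrb1c are higher at the knockout end.

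Klrb1c was low everywhere, between 0.10 and 3.67 FPKM across the 47 libraries, and it was higher in knockout than in control libraries. On DL1 with standard IL-7 the 7 knockout libraries had a lowest value of 0.376, a median of 1.56 and a highest value of 2.82 FPKM, against 0.242, 0.64 and 0.938 FPKM in 6 controls. The DL1 knockout library with reduced IL-7 had 3.67 FPKM, the highest value of the gene, against 0.134 and 0.417 FPKM in controls. On DL4 with standard IL-7 knockout libraries had 2.16, 1.37 and 1.32 FPKM, against 1.09 and 1.15 FPKM in controls, so that here the groups lay close together. On DL4 with reduced IL-7 knockout libraries had 3.01, 1.29 and 1.19 FPKM, against 0.286 FPKM in the control. Over all 25 libraries the groups overlapped, and the means were 1.71 ± 0.96 FPKM in knockout (SD, n = 14) and 0.615 ± 0.35 FPKM in control libraries (SD, n = 11).

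The fitted difference of Klrb1c was 0.67 (SE 0.18, 95% interval 0.31 to 1.03, limma adjusted p = 0.00835). The gene passed the filter of 1 FPKM through 11 knockout and 2 control libraries, that is, mainly through the group in which it was high. It was higher in the knockout library of 8 of 9 pairs, with paired differences of -0.18 to 2.04. With a pseudocount of 0.1 in place of 1 it was 1.24, and still called. With the 9 pairs as a replicate block the difference was 0.66 and no longer past the threshold (limma adjusted p = 0.0595). Among DL4 libraries it was 0.59 (limma adjusted p = 0.265), and within DL1 with standard IL-7, where it failed the filter, an unfiltered fit gave 0.51 (limma adjusted p = 0.277).

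Cd160 was abundant, and its 14 knockout and 11 control values from fetal liver did not overlap. On DL1 with standard IL-7 the 7 knockout libraries had a lowest value of 56.8, a median of 64.1 and a highest value of 93.4 FPKM, against 20.6, 27.6 and 49.9 FPKM in 6 controls. The DL1 knockout library with reduced IL-7 had 65.7 FPKM, against 23 and 20.4 FPKM in controls. On DL4 with standard IL-7 knockout libraries had 54.8, 69.0 and 75.2 FPKM, against 39.95 and 34.2 FPKM in controls. On DL4 with reduced IL-7 they had 71.9, 54.2 and 72.7 FPKM, against 19.2 FPKM in the control. The lowest knockout library thus lay above the highest control, 54.2 against 49.9 FPKM, which was so of 1.21% of genes tested (0.505% in the other direction). By median level Cd160 stood above 92.0% of genes in knockout and 80.4% in control libraries.

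The fitted difference of Cd160 was 1.19 (SE 0.13, 95% interval 0.92 to 1.46, limma adjusted p = 2.25e-07). Paired differences ran from 0.63 to 1.53, and all 9 were positive. The difference was 1.13 within DL1 with standard IL-7 and 1.16 within DL4, each past the threshold. In the middle title year alone, with 4 knockout and 2 control libraries, it was 0.81 (limma adjusted p = 0.0739). Pdzk1, the overlapping gene, had 7.46 ± 2.62 FPKM in knockout (SD, n = 14) and 0.748 ± 0.292 FPKM in control libraries (SD, n = 11), a difference of 2.17 (SE 0.14, limma adjusted p = 1.55e-10). What reads of Pdzk1 add to the value of Cd160 was not tested. The flanking genes Rnf115 and Gpr89 differed by 0.10 and 0.17, neither past the threshold.

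Beside these differences, markers of other cells moved with the genotype. Their counts stand against 9.8% of all genes tested that were higher and 7.1% that were lower. The 2 measured mast cell and basophil markers, the protease genes Cpa3 and Mcpt8, both rose, with a summed level of 188 to 798 FPKM in knockout and 74.4 to 333 FPKM in control libraries. The summed level of the 6 measured NK cell markers was 1680 to 4709 FPKM in knockout and 718 to 1904 FPKM in control libraries, most of it Gzma. Myeloid markers (0 of 3 tested called) summed to 6.31 to 47.0 FPKM in knockout and 5.75 to 24.97 FPKM in control libraries. Of type 2 innate lymphoid markers 1 of 2 tested rose, with sums of 25.9 to 80.6 FPKM in knockout and 13.1 to 51.9 FPKM in control libraries. Prf1 and Ifng were, like Ncr1 and Eomes, under 1 FPKM in all 25 libraries. The T-lineage marker Cd3e, a chain of the T-cell receptor complex, averaged 15.6 ± 17.8 FPKM in knockout (SD, n = 14) and 107 ± 46.2 FPKM in control libraries (SD, n = 11). Of the gamma-delta T and NKT markers 1 rose and 1 fell among 5, of B cell markers 2 of 2 fell and of erythroid markers 1 of 3 fell. None was called among 1 type 3 innate lymphoid, 3 stromal and 4 double-positive thymocyte markers. The part of such cells in the results was not tested.

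**Figure D2:**
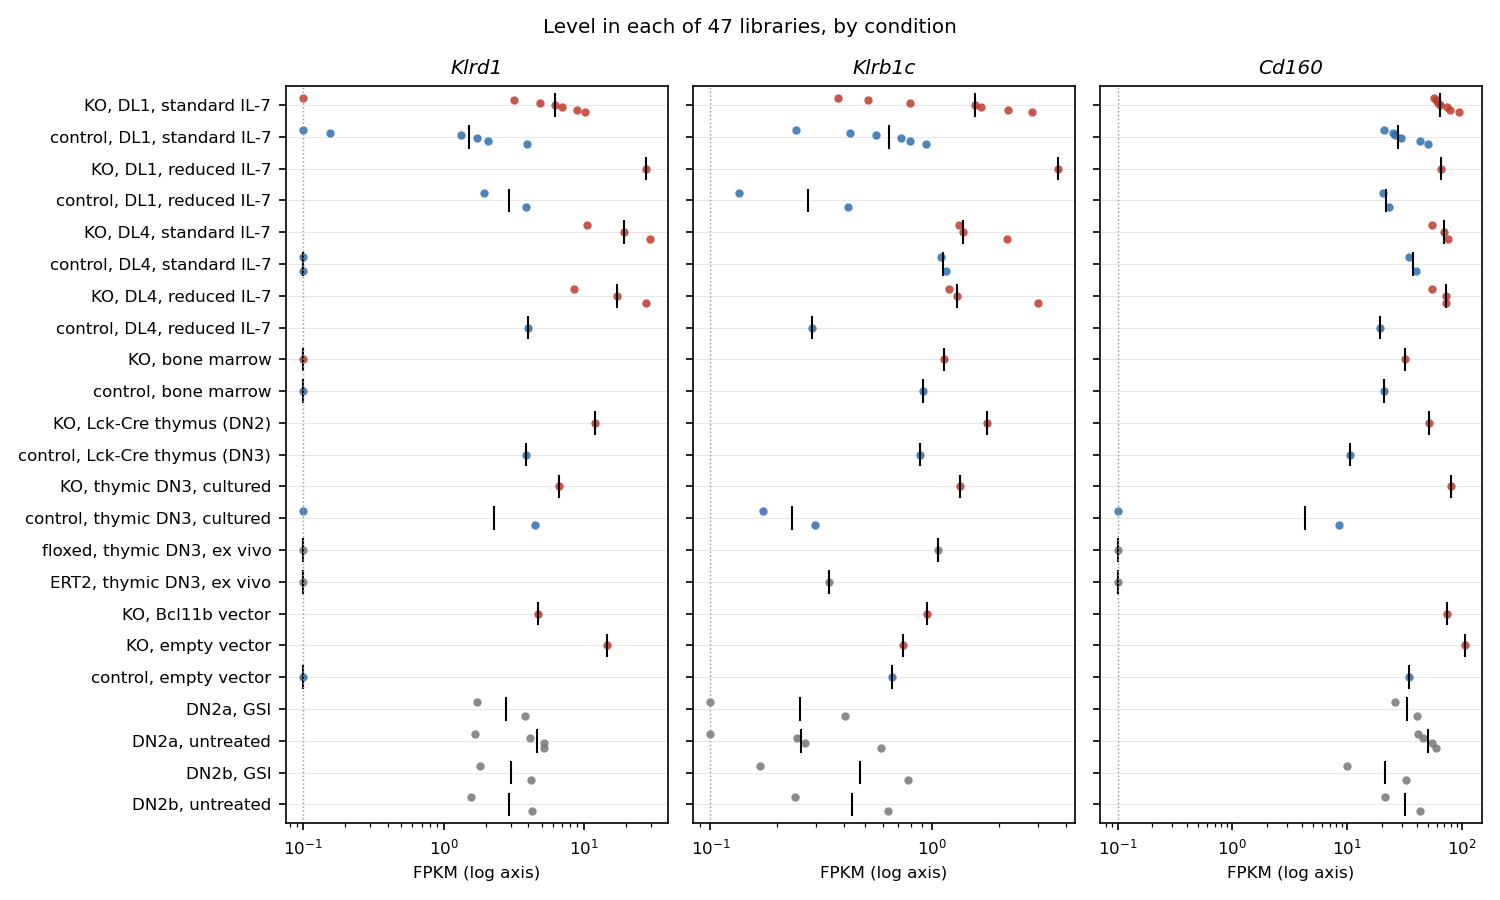
FPKM (log axis) of each member in all 47 libraries by condition; points are libraries, red for knockout, blue for their controls and grey for others, black bars are medians and the dotted line is the floor of 0.1 FPKM. Cd160 in fetal liver knockout libraries (54.2 to 93.4 FPKM) lies above all fetal liver controls (19.2 to 49.9 FPKM), and Klrd1 is at the floor in 10 libraries.

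Whether the knockout difference depended on culture conditions was tested with interaction terms. For stroma, the Klrd1 difference was larger on DL4 than on DL1 by 1.60 (SE 0.77, limma adjusted p = 1, unadjusted 0.0482). No gene was called among 14271 tested, with 338 at an unadjusted p under 0.05. Standard IL-7 cultures on DL1 and DL4 came from different title years, so stroma and year cannot be told apart there. At reduced IL-7, 1 date held knockout libraries on both stromas, with 17.3 FPKM of Klrd1 on DL4, against 27.5 FPKM on DL1. Another date held controls on both, with 4.01 FPKM on DL4, against 3.89 FPKM on DL1. For IL-7, the differences were larger at reduced IL-7 by 0.79 for Klrb1c (SE 0.36, limma adjusted p = 0.386) and 0.56 for Cd160 (SE 0.28, limma adjusted p = 0.418), and -0.041 for Klrd1 (limma adjusted p = 0.987). Without the DL1 knockout library with reduced IL-7 the Klrb1c term was 0.48. On the 1 date with knockout cells on DL4 at both IL-7 levels, Klrb1c had 1.19 FPKM with reduced IL-7, against 1.37 FPKM with standard IL-7, and Cd160 had 72.7 FPKM, against 69.0 FPKM. In the IL-7 fit 0.701% of genes were called, 0.645% as higher and 0.0561% as lower. In place of 100 genes, 40 were called without the DL1 knockout library with reduced IL-7, and among DL4 libraries with reduced IL-7, 43 without the control, 49 without knockout replicate 1 and 202 without knockout replicate 3.

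The 3 DL1 pairs with titled days 9, 10 and 12 have dates that advance with the day, as 1 knockout and 1 control culture sampled over time would. Klrd1 there had 4.84, 6.99 and 8.87 FPKM on days 9, 10 and 12 in knockout cells, against 2.09, 1.32 and 1.73 FPKM in control cells. Klrb1c had 0.376, 0.515 and 1.56 FPKM on the same days in knockout cells, against 0.555, 0.242 and 0.938 FPKM in control cells. Cd160 had 77.6, 73.1 and 58.6 FPKM in knockout cells, against 49.9, 25.8 and 29.4 FPKM in control cells. Klrd1 was thus higher in the knockout on each day, and Klrb1c was not on day 9. Over the 13 DL1 libraries with standard IL-7, the interaction of genotype with day class (12 against 9 to 10) was 1.56 for Klrd1 (SE 0.91), 0.63 for Klrb1c (SE 0.34) and 0.14 for Cd160 (SE 0.41), each with a limma adjusted p of 1. Without knockout replicate 5, the day 9 library at the floor, the Klrd1 term was 0.84. No gene of 13674 was called, and 312 had an unadjusted p under 0.05.

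Untreated DN2a cells are of the gate that the protocol gives for knockout cells, and were set against them to compare levels. Of the 7 knockout libraries used here, 1 is titled DN2a, 5 are titled DN2 and 1 is titled DN2b. Against 4 untreated DN2a libraries, the 7 knockout libraries on DL1 with standard IL-7 did not pass the threshold for any member. Klrd1 had 0.10 to 10.2 FPKM in knockout cells, against 1.67 to 5.22 FPKM in DN2a cells, and the difference, knockout minus DN2a, was 0.23 (SE 0.52, 95% interval -0.89 to 1.34, limma adjusted p = 0.789). Knockout libraries on DL4 or with reduced IL-7 had 8.47 to 29.8 FPKM of Klrd1. They are not in this fit and differ from the DN2a cultures in stroma or IL-7. Klrb1c had 0.376 to 2.82 FPKM in knockout cells, against 0.10 to 0.585 FPKM in DN2a cells, and a difference of 0.82 (SE 0.27, 95% interval 0.24 to 1.39, limma adjusted p = 0.0502). It passed the filter here only through knockout libraries, the group in which it was high, since every DN2a library was under 1 FPKM. Cd160 had 56.8 to 93.4 FPKM in knockout cells, against 41.5 to 58.8 FPKM in DN2a cells, so that the ranges overlapped, and a difference of 0.45 (SE 0.16, 95% interval 0.11 to 0.79, limma adjusted p = 0.0644). In this fit of 12979 genes 16.9% were called, 9.67% as higher and 7.25% as lower, and groups did not overlap for 6.26% (higher) and 6.03% (lower). Bcl11b itself had 8.77 to 37.9 FPKM in these knockout cells, against 0.10 to 15.1 FPKM in DN2a cells (difference 1.67, limma adjusted p = 0.0703). Of the T-lineage markers, Lck (0.92) and Thy1 (5.70) were called higher in knockout cells and none was called lower. Cd3e differed by 0.037. With all 14 knockout libraries and covariates the difference of Cd160 (0.45, limma adjusted p = 0.0387) passed the threshold, as did that of Klrb1c (0.89, limma adjusted p = 0.0266), which again entered only through knockout libraries. Leaving out 1 library gave adjusted limma p-values of 0.0228 to 0.121 for Klrb1c in 7 of 11 fits, and in the other 4 it failed the filter. It was past the threshold without knockout replicate 2 or 3. In place of 2196 genes, 1160 were called without DN2a replicate 4 and 1311 without DN2a replicate 2. Title years of the groups did not overlap and only the knockout cells had Cre. Culture days also differed, from 9 to 12 in knockout cells, against 8.5 in DN2a replicate 3 and 4.5 in DN2a replicate 4. DN2a replicates 1 and 2 have no titled day. Year, Cre and day cannot be told apart from the genotype.

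**Figure D3:**
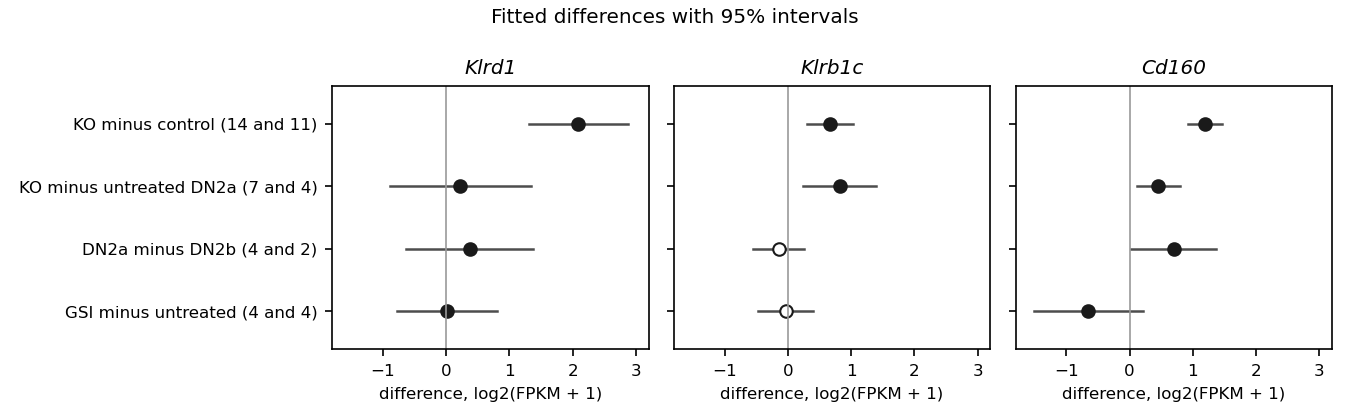
Fitted differences on the log2(FPKM + 1) scale with 95% intervals for each member in 4 comparisons, with the numbers of libraries in brackets; open symbols are unfiltered fits of Klrb1c, which failed the filter there. Klrd1 differs by 2.09 between the 14 knockout and 11 control libraries. It differs by 0.23 between the 7 knockout libraries on DL1 with standard IL-7 and untreated DN2a cells. Within DL1 with standard IL-7, the difference from controls was 1.33, not past the threshold. The knockout comparisons share 7 libraries.

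Across the normal step, DN2a cells had 1.67, 4.10, 5.17 and 5.22 FPKM of Klrd1, against 1.57 and 4.30 FPKM in DN2b cells, a difference of 0.37 (SE 0.43, 95% interval -0.63 to 1.38, limma adjusted p = 0.574). Cd160 had 41.5, 58.8, 45.7 and 54.5 FPKM in DN2a cells, against 21.3 and 42.8 FPKM in DN2b cells, a difference of 0.70 (SE 0.29, 95% interval 0.03 to 1.37, limma adjusted p = 0.139). The groups overlapped for both genes. Klrb1c was at or below 0.632 FPKM in all 6 libraries and failed the filter. In this fit of 13364 genes 13.5% were called, 4.23% as higher and 9.23% as lower in DN2a cells, and groups did not overlap for 18% (higher) and 27.1% (lower). That share depends on single libraries. In place of 1799 genes, 60 were called without the DN2b library titled DN3, 234 without DN2a replicate 4, 802 without DN2b replicate 2 and 1184 without DN2a replicate 2. DN2a replicate 4 is titled day 4.5 and both DN2b libraries day 8.5. Without the library titled DN3 the differences were -0.15 for Klrd1 and 0.21 for Cd160, and without the other DN2b library they were 0.90 and 1.19.

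With GSI, Cd160 was lower in every pair and Klrd1 differed little within pairs, though no gene passed the threshold. Klrd1 had 1.83, 1.74, 4.18 and 3.81 FPKM in the 4 GSI libraries, against 1.57, 1.67, 4.30 and 4.10 FPKM in their untreated partners, with a difference of 0.014 (SE 0.34, 95% interval -0.78 to 0.81, limma adjusted p = 1). Cd160 had 10.0, 25.8, 32.3 and 40.6 FPKM in GSI libraries, against 21.3, 41.5, 42.8 and 58.8 FPKM in untreated partners. It was lower in 4 of 4 pairs, by 0.40 to 1.02 on the log2 scale in size, as were 10.6% of genes tested, while 8.17% were higher in all 4. The fitted difference was -0.65 (SE 0.37, 95% interval -1.51 to 0.21, limma adjusted p = 1), and with the pairs as a block its SE was 0.12 (limma adjusted p = 0.309). Leaving out 1 library moved it between -0.96, without the DN2b GSI replicate 2, and -0.32, without the GSI library titled DN3. No gene of 12783 was called, with or without the block, and 297 and 1323 had an unadjusted p under 0.05. Klrb1c stayed at or below 0.775 FPKM and failed the filter.

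Single libraries of other origins gave values with no test. In thymocytes deleted in vivo with Lck-Cre, Klrd1 had 11.9 FPKM in the knockout (DN2), against 3.86 FPKM in the control (DN3). Klrb1c had 1.77 FPKM in that knockout, against 0.883 FPKM in the control, and Cd160 had 51.4 FPKM, against 10.6 FPKM. The differences of Klrd1 (1.41) and Cd160 (2.17) were past 2-fold, as were those of 4.73% of 13553 genes in that direction (3.56% in the other), and that of Klrb1c (0.56) was not. The stages of these libraries differ, and stage cannot be told apart from genotype.

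Deletion after commitment, in thymic DN3 cells, gave a wider gap in Cd160 than the other single-library comparisons. The cultured knockout library had 79.6 FPKM, against 8.43 and 0.10 FPKM in cultured controls, and both libraries without deletion or culture stood at the floor. Cd160 exceeded the higher cultured control by 3.10 on the log2 scale, and 6.96% of 14157 genes did so by 2-fold or more (2.8% lay as far below the lower control). Klrd1 had 6.61 FPKM in the knockout, against 4.45 and 0.10 FPKM in cultured controls, so that 1 control came near the knockout. Klrb1c had 1.34 FPKM in the knockout, against 0.173 and 0.295 FPKM in cultured controls, while the floxed library taken without deletion had 1.06 FPKM.

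Returning Bcl11b to knockout cells went with a lower Klrd1 value. Klrd1 had 4.73 FPKM with the Bcl11b vector, against 14.7 FPKM with the empty vector in knockout cells and 0.10 FPKM with the empty vector in control cells. Cd160 had 73.9 FPKM with the Bcl11b vector, against 104.9 FPKM with the empty vector in knockout cells and 34.1 FPKM in control cells. Bcl11b itself had 105.4 FPKM with its vector, against 24.7 FPKM with the empty vector. Klrd1 was lower by 1.45 with the Bcl11b vector, past the 2-fold change that 1.64% of 13250 genes reached downward and 1.87% upward, and Cd160 by 0.50, short of it. Between knockout and control cells with the empty vector, Cd160 differed by 1.59, and 5.07% of genes were higher and 3.19% lower by 2-fold or more. Klrb1c stayed between 0.656 and 0.944 FPKM in the 3 libraries. In bone marrow cultures, where Bcl11b was nearly the same under both labels, Klrd1 was at the floor in both libraries. Klrb1c there had 1.13 FPKM in the library labelled knockout, against 0.911 FPKM in the library labelled control. Cd160 there had 31.7 FPKM in the library labelled knockout, against 21.0 FPKM in the library labelled control, a difference of 0.57, where 1.46% of genes were higher and 1.39% lower by 2-fold or more.

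Ordered by median over the 23 conditions, Klrd1 ran from the DL1 knockout with reduced IL-7 (27.5 FPKM) through both DL4 knockout groups (19.2 and 17.3 FPKM), the knockout with empty vector, the Lck-Cre knockout and the cultured DN3 knockout to the DL1 knockout with standard IL-7 (6.27 FPKM). The other conditions followed with medians of 4.73 FPKM or less, and 6 conditions were at the floor. Neighbours among the first 4 conditions overlapped in range, as did DN2a, DN2b and both GSI groups. Klrb1c had the same top condition (3.67 FPKM), followed by 5 knockout groups whose neighbours overlapped in range, and medians of 1.13 FPKM or less in all others. For Cd160 the first 8 conditions were knockouts, from 104.9 FPKM with the empty vector to 51.4 FPKM with Lck-Cre. Ranges of the 4 fetal liver knockout groups overlapped each other, and untreated DN2a cells came next (median 50.1 FPKM). The bone marrow library labelled knockout stood 14th for Cd160, between untreated DN2b cells and the DL1 controls with standard IL-7.

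Other NK receptors were measured less widely: of 30 listed, 14 were in the table analysed here and 7 passed the filter. Of those 7, 2 rose in knockout libraries and none fell, against 9.8% higher and 7.1% lower over all genes, and the list's median difference was 0.26 (0.04 over all genes). Cd244, encoding the receptor 2B4 that binds CD48, had 19.2 ± 4.12 FPKM in knockout (SD, n = 14) and 4.57 ± 2.10 FPKM in control libraries (SD, n = 11), a difference of 1.95 (SE 0.17, limma adjusted p = 4.29e-09). Klra5, a Ly49 family gene whose reads may be shared with close relatives, rose by 0.87 (SE 0.28, limma adjusted p = 0.0332). Against untreated DN2a cells neither gene was called, with differences of -0.054 for Cd244 (limma adjusted p = 0.873) and -0.518 for Klra5 (limma adjusted p = 0.198). The partners of CD94 were low and failed the filter, and were named after their values were seen. Klrc1 averaged 1.27 ± 1.26 FPKM in knockout (SD, n = 14) and 0.335 ± 0.157 FPKM in control libraries (SD, n = 11). Klrc2 averaged 0.478 ± 0.279 FPKM in knockout and 0.156 ± 0.044 FPKM in control libraries. Of 9 tested neighbours in the NK gene complex 1 rose, Clec12a, an inhibitory lectin receptor gene, by 0.47 (limma adjusted p = 0.0138).

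Adaptors and proximal signalling genes split. Of 14 tested, 6 rose and 6 fell, against 9.8% higher and 7.1% lower over all genes, with a median of -0.04. Among those that rose, Sh2d1b1 passed the filter only through knockout libraries, the group in which it was high, since no control exceeded 0.592 FPKM. Tyrobp, encoding the adaptor DAP12 of activating NK receptors, averaged 264 ± 93.6 FPKM in knockout (SD, n = 14) and 34.9 ± 26.8 FPKM in control libraries (SD, n = 11), a difference of 3.43 (limma adjusted p = 1.4e-06). Fcer1g, the adaptor of NKR-P1C, had 225 to 491 FPKM in knockout and 14.9 to 105 FPKM in control libraries, a difference of 2.72 (limma adjusted p = 1.72e-08). On the other side Cd247, encoding the zeta chain, fell by 1.12, Zap70, its kinase, by 1.67, and Hcst, encoding the adaptor DAP10 of NKG2D, by 0.51. Hcst was lower in 6 of 9 date pairs and higher in 3, with a median paired difference of -0.094. Against untreated DN2a cells, where 9.67% of genes were higher and 7.25% lower, Fcer1g was higher in knockout cells by 1.02 (limma adjusted p = 0.00675). Tyrobp was higher there by 0.75 (limma adjusted p = 0.0292). Cd247, which fell against controls, was higher than in DN2a cells by 4.59 (limma adjusted p = 0.00043). Zap70 (0.715) and Hcst (0.545) were not called against DN2a cells. These comparisons share knockout libraries.

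Of 7 tested ligand genes 1 rose and 2 fell, with a list median of -0.10. The counts of called genes here and for the lists that follow stand against 9.8% higher and 7.1% lower over all genes. H2-T23, the ligand of CD94 dimers, fell by 0.51 (limma adjusted p = 0.044), and Tnfrsf14, the ligand of CD160, fell by 0.58 (limma adjusted p = 0.0103). Tnfsf14, encoding LIGHT, the cytokine that binds the same mediator, rose by 0.73 (limma adjusted p = 0.0026). Of 9 tested effector genes 4 rose and none fell, with a list median of 0.75. Gzma, encoding granzyme A, averaged 2983 ± 1002 FPKM in knockout (SD, n = 14) and 1259 ± 326 FPKM in control libraries (SD, n = 11). Ccl5 rose by 1.12, Serpinb9, a granzyme B inhibitor gene, by 1.10 and Srgn, the granule proteoglycan serglycin, by 0.75. Of 20 tested regulators 10 rose and 1 fell, Ets1 by 0.92, with a list median of 0.49. Zbtb16, encoding PLZF of innate-like lymphocytes, rose by 2.26, Il2rb, the shared receptor chain of IL-2 and IL-15, by 1.69, Tox2 by 1.29 and Nfil3, a factor required for NK development, by 1.16. Id2, an inhibitor of E proteins, rose by 1.10 (SE 0.21, limma adjusted p = 0.000395). Knockout cells on DL1 with standard IL-7 were also set against untreated DN2a cells, where 9.67% of genes were higher and 7.25% lower. Gzma, Serpinb9, Il2rb, Tox2, Nfil3 and Id2 were called higher there. Ccl5 (-0.24), Srgn (0.41), Zbtb16 (0.97) and Ets1 (2.04) were not called, nor were H2-T23, Tnfrsf14 and Tnfsf14.

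**Figure D4:**
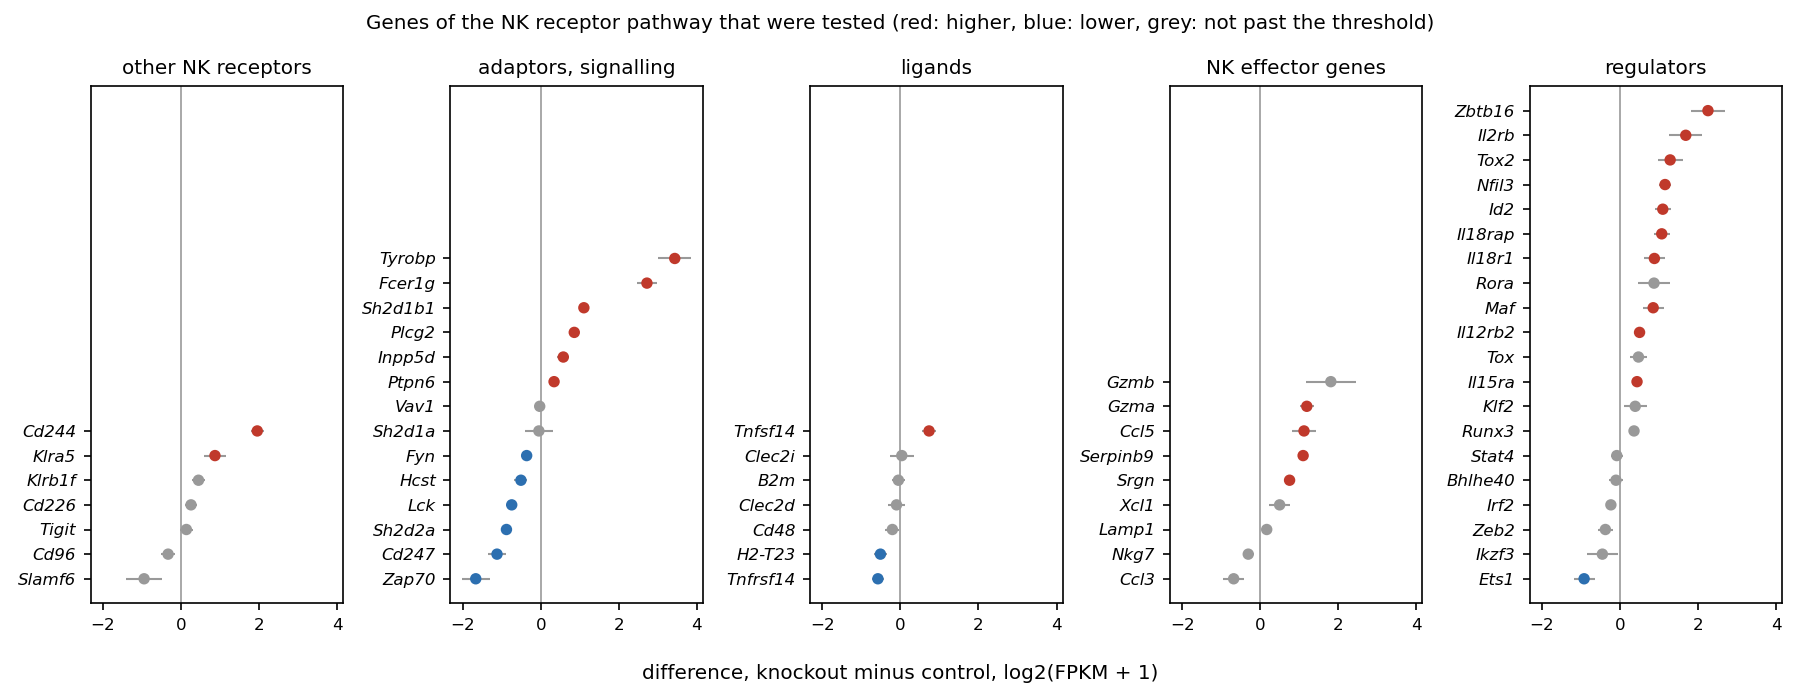
Differences, knockout minus control, on the log2(FPKM + 1) scale with standard errors for the tested genes of 5 lists; red genes were called higher, blue genes lower and grey genes neither. Tyrobp (3.43) and Fcer1g (2.72) lie farthest to the right among the genes shown, and Zap70 (-1.67) farthest to the left.

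Across all 47 libraries the members followed each other loosely, with Pearson correlations of log2(FPKM + 1) of 0.56 between Cd160 and Klrd1, 0.45 between Klrb1c and Klrd1 and 0.38 between Cd160 and Klrb1c. After subtracting group means, over the 35 libraries in groups of more than 1, these were 0.51, 0.17 and 0.08. Libraries share genotype, year and scaling, so the values are descriptions. The 5 genes most like Klrd1 were Gal (0.88), Pdzk1 (0.82), Fdx1 (0.77), Hmga2 (0.75) and Gpx8 (0.74), so that the gene overlapping Cd160 followed Klrd1. The 5 most like Klrb1c were Med13 (0.86), Pou2af1 (0.83), Ikzf2 (0.83), Edem3 (0.82) and Tnfrsf23 (0.81). The 5 most like Cd160 were Itgb7 (0.91), B4galnt2 (0.89), BC035044 (0.88), Samhd1 (0.88) and Itpripl2 (0.88). Within groups these correlations with Cd160 ran from 0.36 for BC035044 to 0.87 for Samhd1.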

How the data were processed

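RNA-seq had been done on 47 libraries. Per the labels' protocols, RNA was selected on oligo-dT beads and cDNA made by random priming, with no step that marks strand. The authors deposited 1 table of FPKM values, merged and adjusted with ComBat per its name, with mm9 named as build per the submitters' processing notes. Which aligner, quantifier and ComBat batches were used is not stated in labels or headers, and the adjustment could have moved differences either way. Columns were matched to samples by the number in each description, and 16 columns that matched no sample were not used. Column totals ran from 581205 to 1005744 FPKM and 0.47% to 6.67% of genes per library stood at the lowest value. Sequencing depth is unknown from FPKM, so no counting interval is given. Klrd1 was at that value in 10, Cd160 in 3 and Klrb1c in 2 libraries.

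Linear models (limma 3.58.1, R 4.3.3) used log2(FPKM + 1), a scale that understates changes of low genes, with a trend in the empirical Bayes step. Genes entered a fit with 1 FPKM or more in as many libraries as its smallest group held, p-values were adjusted by Benjamini-Hochberg over all genes tested, and genes under 0.05 are called. The fitting routine was tested on simulated data. Some libraries come from 1 culture, and where nothing says that libraries came from separate animals, p-values measure only the spread between these samples. Pairs come from shared title date, stroma and IL-7. Deviations from group means correlated between -0.05 and 0.54 within the 9 knockout pairs and between 0.66 and 0.73 within the 4 GSI pairs. Each group of the GSI pairs held 2 libraries, whose deviations mirror each other, so 0.66 and 0.73 each stand for 2 pairs. The members and gene lists were chosen with earlier results of these data known. Named beside the members were 8 context genes, up to 4 called genes per list with the largest knockout difference, the 5 genes most alike among those with a mean of at least 2 FPKM, and neighbours in the annotation. Likeness was computed in Python 3.11.15. Upstream sequences were matched by symbol to RefSeq, with Cd160 and Klrb1c matched. Alternatives were another pseudocount (0.1), no filter, quantile normalization, robust variances, replicate blocks, subsets, other covariates and each library left out.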

Additional observations from a re-analysis of the deposited data

How the results depend on the processing

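For the knockout comparison, Klrd1, Klrb1c and Cd160 kept direction and call when any 1 of 25 libraries was left out, with ranges of 1.93 to 2.35, 0.56 to 0.75 and 1.14 to 1.26, and 1830 to 2246 genes called in place of 2142. They also kept both with quantile normalization, with robust variances, without the filter, with a pseudocount of 0.1, without covariates, title year as covariate and reduced IL-7 only. Leaving out the DL1 pair with reduced IL-7, chosen after seeing the data, gave 1.98, 0.54 and 1.16, all called. With the replicate block of 9 date pairs 1282 genes were called and Klrb1c (0.66) was not. With 7 culture pairs the count was 858 and Klrb1c (0.80) was not called. The block changed no other call of a member. With DL1 and standard IL-7 only, or the latest title year, the same libraries, 778 genes were called, and Klrd1 (1.33) was not. Without the filter there, an alternative chosen after seeing the data, the count was 835 and neither Klrd1 (1.33) nor Klrb1c (0.51) was called. DL4 only gave 451 calls and Klrb1c at 0.59, not called. Reduced IL-7 only gave 430 calls and the earliest title year 475. The middle title year gave 270 calls, with Klrb1c at 0.29 and Cd160 at 0.81, neither called. The 3 pairs whose control is titled DN2 gave 131 calls, with Cd160 at 1.02, not called. Klrb1c could not be fitted under the filter in these last pairs or in DL1 with standard IL-7.

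For DN2a against DN2b, 1065 genes were called with a pseudocount of 0.1 and 624 with a replicate block of 2 title-date pairs. Leaving out 1 library gave 60 to 1406 calls and -0.15 to 0.90 for Klrd1. Quantile normalization called 692 higher and 580 lower, against 565 and 1234, and moved the median of all genes to 0.05 from -0.07. For GSI, Klrd1 was -0.027 without the pair titled DN3 and -0.20 to 0.21 over libraries left out, and Cd160 -0.96 to -0.32. The block kept the count at 0 there.

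For knockout against untreated DN2a, Klrb1c passed the threshold with a pseudocount of 0.1 (1.80), with robust variances (0.82) and with all 14 knockout libraries (0.89), and Cd160 with the last (0.45). Klrb1c entered each of these fits only through knockout libraries, the group in which it was high. Leaving out 1 library gave 1160 calls (without DN2a replicate 4) to 2404 and -0.053 to 0.62 for Klrd1. For Klrb1c it gave 0.74 to 0.94 in the 7 of 11 fits in which the gene passed the filter. Quantile normalization called 1077 higher and 1253 lower, against 1255 and 941.

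Interaction terms for IL-7 gave 59 calls under quantile normalization (46 higher, 13 lower, against 92 and 8), which moved the median of all genes to -0.02 from 0.12. Libraries left out gave 40 to 202 calls for IL-7, with -0.45 to 0.31 for Klrd1. For stroma they gave 0 to 4 calls, -0.48 to 0.073 for Klrb1c and -0.30 to 0.12 for Cd160. For culture day they gave 0 to 2 calls, 0.84 to 1.99 for Klrd1 and -0.17 to 0.40 for Cd160. The cause of these changes was not tested. With no counts, depth sets no limit that can be given. The floor of 0.1 FPKM limits Klrd1, which stood there in 3 of 11 fetal liver controls and in 10 libraries in all.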
